A study of Mus musculus with 6 samples.

Results

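The genes of vanin and coenzyme A (CoA) metabolism described here are the vanins Vnn1 and Vnn3, the pantothenate kinases Pank1, Pank2 and Pank3, the later synthesis enzymes Ppcs, Ppcdc and Coasy, and the CoA hydrolases Nudt7 and Nudt19. These 10 of 45777 genes in the deposited table were chosen by symbol for their place in this pathway, with the read counts of knockout against control libraries already known. Every genotype difference below is therefore a description of these 6 libraries, also where an adjusted p is printed, and supports nothing beyond them. All 10 had enough reads to be among the 16197 genes tested.

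CoA carries acyl groups in fatty acid oxidation and synthesis, and liver holds one of the largest CoA pools of the body. It is built from the vitamin pantothenate. Pantothenate kinases make the first and rate-setting step, PPCS and PPCDC the next ones, and CoA synthase the last. CoA is broken down again: nudix hydrolases of peroxisomes and mitochondria cut it to phosphopantetheine, which is dephosphorylated to pantetheine, and vanins, the pantetheinases, split pantetheine into pantothenate and cysteamine. Vnn1 is also known as a gene that PPARα, a lipid-sensing nuclear receptor, switches on.

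Whole livers of C57BL/6 mice aged 10 weeks were sequenced as polyadenylated RNA. The 3 WT libraries carried Pak4 flox/flox alleles without Cre, and the 3 Pak4_KO libraries carried the same floxed alleles with Alb-Cre, which drives Cre from the albumin promoter and so acts in hepatocytes. All mice of both groups therefore had floxed Pak4. The labels call the knockout hepatocyte-specific, and whether other liver cells of the Pak4_KO group kept Pak4 was not tested. The comparison asks what the loss of this kinase from hepatocytes does to liver RNA. Only the Pak4_KO libraries carried Cre, so a part of Cre itself and the loss of Pak4 cannot be told apart. The labels number the libraries within each group but do not tie them to animals, so a p-value measures only the spread between these libraries.

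The libraries held 39603272 to 52521400 counted reads, and no pair within a group agreed within sampling noise (chi-square per gene from 59.9 to 119). Pak4 stood at 5.93, 7.15 and 6.44 CPM (counts scaled to library size, with TMM factors) in WT and at 1.37, 2.24 and 1.90 CPM in Pak4_KO (log2 fold change -1.82, SE 0.24, edgeR adjusted p = 0.0169). All 10 hepatocyte markers had reads, with summed levels of 48157 to 63873 CPM in WT and 58558 to 66136 CPM in Pak4_KO. Neutrophil markers (12 genes, none at 0) summed to 37.3 to 65.8 CPM in WT and to 24.0 to 32.0 CPM in Pak4_KO. Kupffer cell and macrophage markers (12 genes, none at 0) summed to 531 to 677 CPM in WT and to 420 to 521 CPM in Pak4_KO. For neither list did the genotypes overlap. The 8 tested neutrophil markers and all 12 macrophage markers had negative log2 fold changes, with 0 called. Wholly below WT lay 4 neutrophil and 2 macrophage markers, against 6.06% of all tested genes. Markers of other cells went both ways. Of 10 tested hepatocyte markers 4 had positive and 6 negative log2 fold changes (median -0.02). For 8 tested T, NK and B cell markers it was 2 and 6 (median -0.51). Of 3 tested gut epithelium markers 1 was positive and 2 were negative (median -0.54), as for 3 tested adipose markers (median -0.23). Cholangiocyte, endothelial and stellate cell markers lay mostly on the side of Vnn1. Of 9 tested cholangiocyte markers 8 had positive log2 fold changes (median 0.90), as had all 10 endothelial markers (median 0.18). So had 8 of 10 stellate cell markers (median 0.32), again with 0 called on any of these lists. In that order, 4, 1 and 2 markers lay wholly above WT, against 7.35% of all tested genes. The summed levels of these lists overlapped between the genotypes. They were at 41.4 to 61.2 CPM in WT and 57.5 to 87.0 CPM in Pak4_KO for cholangiocytes, 343 to 464 and 383 to 553 CPM for endothelium, and 230 to 346 and 215 to 409 CPM for stellate cells. The cholangiocyte median was the value of Krt19 (SE 0.76), which had means of 0.419 CPM in WT and 0.782 CPM in Pak4_KO. WT means of Krt7, Cftr, Tspan8 and Mmp7 were lower still, and those of Epcam, Sox9, Pkhd1 and Spp1 higher. The part of any of these cell types in the values below was not tested. In whole liver, fewer cells of a type and less RNA per cell cannot be told apart.

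The vanins are paralogs that lie side by side, so their coding sequences were compared to see whether reads could be taken for one another. Vnn1 (NCBI gene 22361) spans 23894688 to 23905344 and Vnn3 (NCBI gene 26464) 23851462 to 23869843 on chromosome 10 of GRCm38, 24.84 kb apart. Over 1474 aligned coding bases they were 67.4% identical, and the longest run without a difference was 12 bases. The stretch around that run is shown 5′ to 3′ from the GENCODE M21 coding sequences, positions 757 to 808 of Vnn1 and 754 to 805 of Vnn3, with the shared run in capitals.
Vnn1: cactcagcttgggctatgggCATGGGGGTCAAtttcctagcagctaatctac
Vnn3: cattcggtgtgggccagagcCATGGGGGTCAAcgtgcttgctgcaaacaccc

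The kinases are more alike. Pank1 and Pank2 were 75.0% identical over 1328 aligned coding bases, Pank1 and Pank3 72.3%, and Pank2 and Pank3 73.8%. No member shared a stretch of at least 100 bases at 95% identity or more with another member.

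Within WT liver, the level per gene length, read from the deposited TPM (length-scaled share of a library), spanned from Nudt7 down to Ppcdc. Nudt7, which hydrolyses CoA in liver peroxisomes, stood at 573 ± 44.7 TPM (SD, n = 3), and Pank1, a pantothenate kinase, came next at 59.7 ± 2.50 TPM. Coasy, the bifunctional CoA synthase, was at 45.9 ± 4.64 TPM and Vnn3 at 35.9 ± 4.82 TPM. None of these overlapped with its neighbour in the order. Pank3 (21.8 ± 0.362 TPM) and Nudt19 (20.98 ± 1.47 TPM) did overlap, as did Ppcs (14.03 ± 2.04 TPM) and Vnn1 (10.3 ± 2.13 TPM). Pank2 (8.10 ± 0.533 TPM) and Ppcdc (5.49 ± 1.22 TPM) were lowest. In Pak4_KO liver, Vnn1 moved from place 8 to place 5 of the order, and its 26.1 to 50.6 TPM overlapped the ranges of Coasy, Vnn3 and Pank3.

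**Figure D1:**
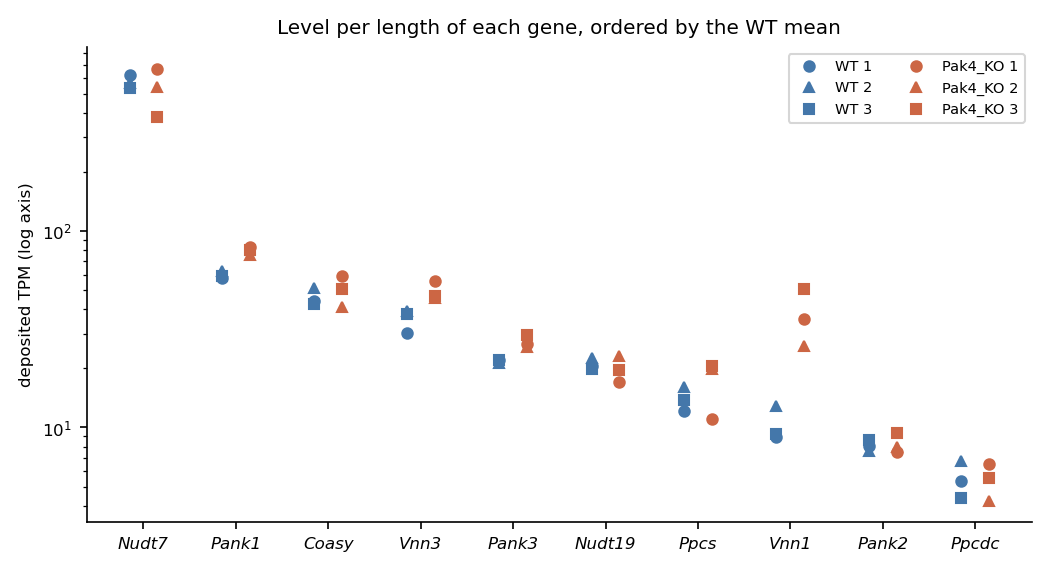
Deposited TPM (log axis) of each gene in every library, ordered by the WT mean; blue marks are WT, orange marks Pak4_KO, and the shape gives the replicate number. Nudt7 lies far above the rest, and Vnn1 has a WT mean of 10.3 and a Pak4_KO mean of 37.5 TPM.

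Of the 10 genes, Vnn1 alone was called between the genotypes (edgeR adjusted p under 0.05), in the direction of higher expression in Pak4_KO; 0.265% of all tested genes were called higher. None was called lower, against 0.204% of all tested genes, and 3 members had an unadjusted p under 0.05 in either direction, against 8.21% of all tested genes. Both vanins, Pank1 and Pank3 had every Pak4_KO library above every WT library, and none of the 10 had the reverse. Among all tested genes, 7.35% lay wholly above and 6.06% wholly below. The median log2 fold change was 0.13 over the 10 members, with 7 positive and 3 negative, and 0.004 over all tested genes.

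Vnn1, a pantetheinase anchored on the outer face of the cell membrane, had 473, 912 and 696 reads in the WT libraries. In the Pak4_KO libraries it had 2115, 1782 and 3265 reads. Scaled to depth, this was 11.9, 19.2 and 13.8 CPM against 49.9, 37.7 and 65.3 CPM, with the lowest Pak4_KO library well above the highest WT library. Vnn1 rose 3.4-fold (log2 fold change 1.77, SE 0.25, edgeR adjusted p = 0.0244). Each fit that left out 1 library kept the direction, with log2 fold changes from 1.55 to 1.98. The call was lost in the fits lacking WT replicate 1 (edgeR adjusted p = 0.0923), WT replicate 3 (0.0705), Pak4_KO replicate 1 (0.0682) and Pak4_KO replicate 3 (0.0890). Gut epithelium is another known site of Vnn1 expression. Its 10 markers summed to 35.8 to 47.4 CPM in WT and 37.0 to 47.9 CPM in Pak4_KO, mostly from Fabp2 and Lgals4, and Alpi, Sis, Cdx1 and Cdx2 had no reads in any library. Lgals4 was lower in every Pak4_KO library (6.84, 6.82 and 8.20 CPM against 10.7, 11.8 and 9.26 CPM in WT), while Vil1, below the filter, had no reads in WT and 0.378, 0.064 and 0.300 CPM in Pak4_KO. The part of gut cells in the Vnn1 values was not tested.

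Vnn3, the neighbouring vanin, was at 32.2, 44.3 and 42.5 CPM in WT and at 58.2, 49.9 and 45.7 CPM in Pak4_KO. The groups did not overlap, but the highest WT and the lowest Pak4_KO library were close. Its log2 fold change was 0.37 (SE 0.16) and it was not called. The balance of the vanins differed between the genotypes without overlap. The ratio of Vnn1 to Vnn3 TPM was 0.296, 0.325 and 0.244 in WT and 0.646, 0.573 and 1.09 in Pak4_KO. In Pak4_KO replicate 3 Vnn1 had passed Vnn3. Summed, the vanins stood at 46.2 ± 6.45 TPM in WT and 86.7 ± 13.3 TPM in Pak4_KO (SD, n = 3 each), without TMM factors.

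**Figure D2:**
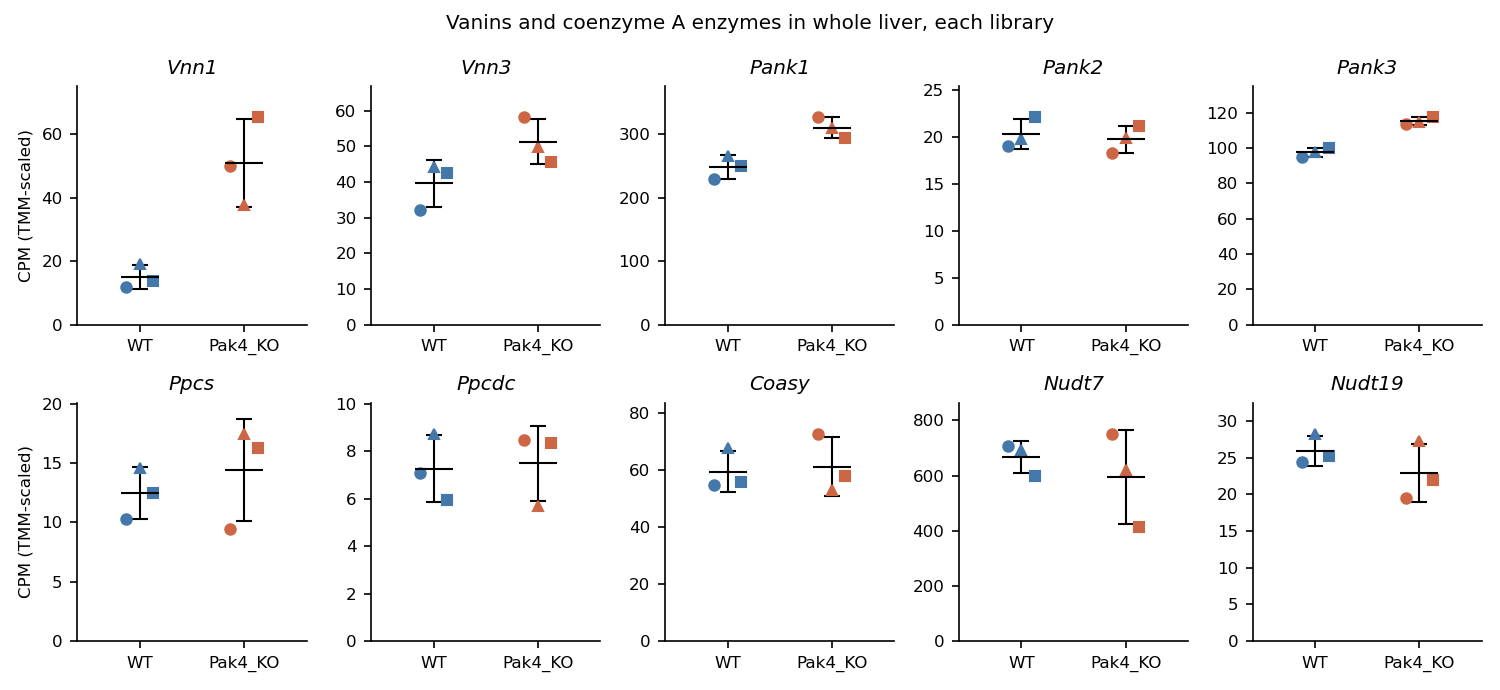
TMM-scaled CPM of each gene in the 3 WT (blue) and 3 Pak4_KO (orange) libraries; shapes give the replicate number, the long dash the mean and the bar the SD, on axes that start at 0. Vnn1 is 11.9 to 19.2 CPM in WT and 37.7 to 65.3 CPM in Pak4_KO, while the groups of Pank2, Ppcs, Ppcdc, Coasy, Nudt7 and Nudt19 overlap.

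Of 31 annotated genes within 0.5 Mb of Vnn1, 8 were tested, 7 of them with an established name, Vnn3 included. None of these was called higher. Rps12, a ribosomal protein gene, had a log2 fold change of 0.14 (SE 0.16), and the small nucleolar RNA genes within it were at 0.03 (Snora33, SE 0.46) and 0.26 (Snord100, SE 0.45). The transporter gene Slc18b1 was at 0.37 (SE 0.33) and the syntaxin gene Stx7 at -0.04 (SE 0.13). Moxd1, a monooxygenase-like gene 318.2 kb away, was called lower (edgeR adjusted p = 0.0369). Its WT libraries held 68.7, 27.1 and 5.21 CPM, and its Pak4_KO libraries 0.307, 0 and 0 CPM, so the WT spread was nearly as large as the WT mean. The trace amine receptor genes between Vnn1 and Stx7 were not among the tested genes.

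Genes with a profile most like that of Vnn1 were sought among 11429 named genes with a mean of at least 1 CPM. The measure was the root mean square difference of mean-centred log2 CPM over the 6 libraries. Closest were Jchain (0.226), the joining chain of secreted antibodies, Sytl5 (0.234), a synaptotagmin-like protein, Igkc (0.276), the kappa light chain constant region, Abcd2 (0.302), a peroxisomal fatty acid transporter, and Tmem267 (0.308), a transmembrane protein. Jchain was at 1.44, 1.96 and 1.63 CPM in WT and 3.94, 4.64 and 6.52 CPM in Pak4_KO, and Abcd2 at 2.95, 6.06 and 4.31 CPM against 20.1, 8.02 and 16.0 CPM. All 5 were at 20.1 CPM or less in each library, and their likeness is a description over 6 libraries. None of the 5 was called (edgeR adjusted p from 0.0505 for Jchain and Igkc to 0.138 for Abcd2). Jchain also stands on the list of T, NK and B cell markers, which summed to 6.08 to 8.86 CPM in WT and 7.69 to 9.82 CPM in Pak4_KO. Without Jchain, a choice made after seeing the data, the other 11 markers summed to 7.42, 4.12 and 4.97 CPM in WT and to 3.75, 3.09 and 3.30 CPM in Pak4_KO, lower without overlap. Of the 8 tested markers 6 had negative log2 fold changes (median -0.51), with 0 called. Cd3g, Cd4 and Trac lay wholly below WT, against 6.06% of all tested genes, and Jchain wholly above. The part of these cells was not tested. Of the other members, Vnn3 was nearest to Vnn1 by this measure (0.754), with 7.08% of tested genes nearer. Pank1 came close behind (0.773, with 8.50% nearer). The measure holds the genotype difference itself, so genes higher in Pak4_KO tend to lie nearer by construction.

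Among the kinases, Pank1 (NCBI gene 75735, chromosome 19, 34806935 to 34883423), the main hepatic form, was at 229, 266 and 249 CPM in WT. It stood at 327, 309 and 294 CPM in Pak4_KO, so each Pak4_KO library was above each WT library. The log2 fold change of Pank1 was 0.32 (SE 0.13), which was not called (unadjusted p = 0.0322). Pank3 (NCBI gene 211347, chromosome 11, 35769495 to 35791285), a cytosolic form, had the smallest CPM spread relative to its mean of the 10 genes in both groups, at 95.01, 97.9 and 100.1 CPM against 113, 115 and 118 CPM. Its log2 fold change was 0.24 (SE 0.11), not called either.

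Pank2 (NCBI gene 74450, chromosome 2, 131262008 to 131299188), the form mutated in a human neurodegenerative disease, overlapped between the groups, at 18.98, 19.8 and 22.1 CPM in WT and 18.3, 19.9 and 21.2 CPM in Pak4_KO. Its log2 fold change of -0.04 (SE 0.13) turned positive with library size scaling, TPM, or without WT replicate 3 or Pak4_KO replicate 1. The Pank2 transcript shares 1125 bases with Rnf24 on the opposite strand, and whether strand was used in counting is not given in the sources used here, so reads there could count for either gene. Rnf24 had a log2 fold change of -0.50 (SE 0.24). Pank2 also overlaps Gm14233 on its own strand over 359 bases, a gene below the filter.

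Pank1 supplied 66.6% ± 1.45 of the summed Pank TPM in WT and 69.0% ± 1.83 in Pak4_KO (SD, n = 3 each), Pank3 24.3% ± 0.900 and 23.8% ± 1.08, and Pank2 9.05% ± 0.668 and 7.22% ± 0.752. Only the Pank2 share, at 8.33 to 9.65% in WT and 6.44 to 7.94% in Pak4_KO, had no overlap. The Pank1 shares overlapped between the groups (65.6 to 68.3% against 67.2 to 70.9%). Summed over the kinases, the level was 87.5, 91.4 and 89.9 TPM in WT and 117, 109 and 118 TPM in Pak4_KO, again without overlap. These TPM carry no TMM factors. The median log2 fold change of all tested genes was 0.056 on log2(TPM + 1) and 0.004 on TMM-scaled counts. On these scales Pank1 was at 0.40 and 0.32.

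Past the kinase step, differences were small against the spread. Ppcs (NCBI gene 106564, chromosome 4, 119418527 to 119422440), which joins cysteine to phosphopantothenate, was at 10.2, 14.6 and 12.5 CPM in WT and at 9.46, 17.5 and 16.3 CPM in Pak4_KO. Pak4_KO replicate 1 was its lowest library and the other Pak4_KO libraries its highest, and the log2 fold change was 0.21 (SE 0.25). Ppcdc (NCBI gene 66812, chromosome 9, 57385095 to 57440157), the decarboxylase, had the fewest reads, 268 to 416 per library. It was at 7.09, 8.73 and 5.94 CPM in WT and 8.45, 5.67 and 8.32 CPM in Pak4_KO, with a log2 fold change of 0.04 (SE 0.22). Coasy (NCBI gene 71743, chromosome 11, 101082565 to 101086619) was at 54.8, 67.7 and 55.7 CPM in WT and 72.8, 52.9 and 58.0 CPM in Pak4_KO, with a log2 fold change of 0.04 (SE 0.16). The groups overlapped for all of Ppcs, Ppcdc and Coasy. The sign of Ppcdc turned without WT replicate 3 (-0.08), Pak4_KO replicate 1 (-0.05) or Pak4_KO replicate 3 (-0.04), and on the TPM scales. That of Coasy turned without WT replicate 1 (-0.02) or Pak4_KO replicate 1 (-0.10).

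The hydrolases had negative log2 fold changes, neither of them called. Nudt7 (NCBI gene 67528, chromosome 8, 114133574 to 114154731) was at 707, 693 and 600.3 CPM in WT. Pak4_KO libraries of Nudt7 spread widely, at 752, 619 and 414 CPM, so that they held both the highest and the lowest value. The log2 fold change of Nudt7, -0.16 (SE 0.22), rested on Pak4_KO replicate 3, without which it was 0.04 (SE 0.16). That library also had the highest Vnn1. Nudt19 (NCBI gene 110959, chromosome 7, 35547185 to 35558643), a peroxisomal hydrolase better known from kidney, was at 24.3, 28.3 and 25.1 CPM in WT and 19.5, 27.2 and 22.0 CPM in Pak4_KO. Its log2 fold change was -0.18 (SE 0.16). Nudt19 lies 6.949 Mb from the targeted Pak4 gene and shares 938 bases with B230322F03Rik on the opposite strand, which was not among the tested genes.

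Per length, Nudt7 exceeded Pank1 9.62 ± 1.02 times in WT and 6.69 ± 1.71 times in Pak4_KO (SD, n = 3 each). Library by library the ratio was 10.8, 9.11 and 8.97 in WT and 8.07, 7.22 and 4.79 in Pak4_KO, so the groups did not overlap. Nudt7 itself did overlap, and Pank1 itself did not. The ratio of Nudt7 to Nudt19 overlapped, at 30.1, 25.1 and 26.9 in WT and 39.4, 23.4 and 19.4 in Pak4_KO.

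**Figure D3:**
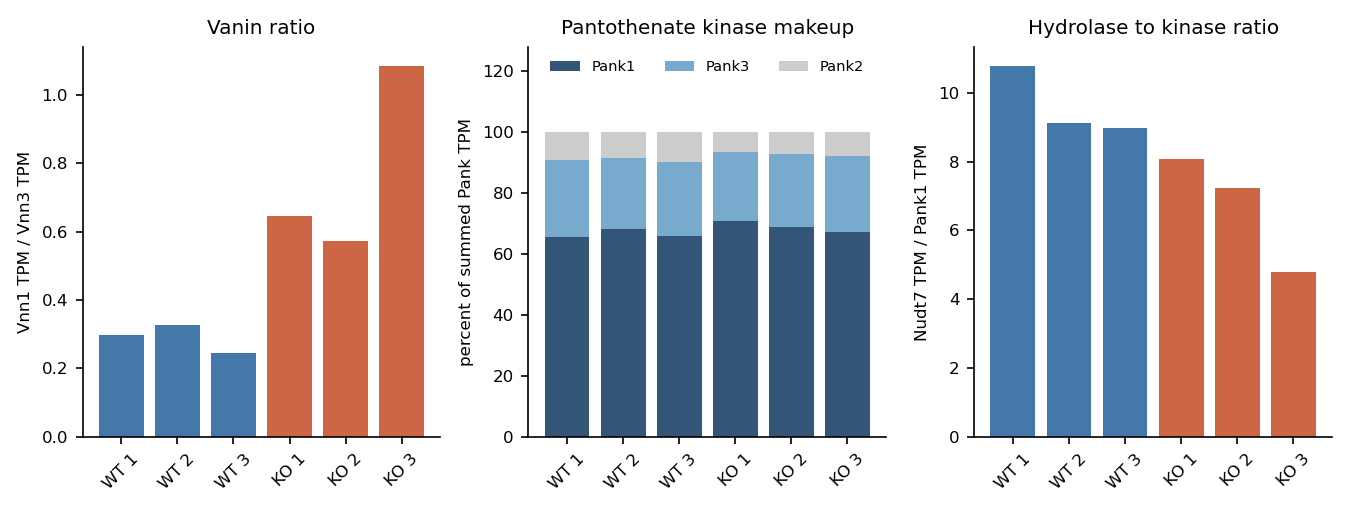
Ratios and shares from deposited TPM in each library (WT blue, Pak4_KO orange, labelled KO): Vnn1 over Vnn3, the share of each kinase in the summed Pank TPM, and Nudt7 over Pank1. The vanin ratio is 0.244 to 0.325 in WT and 0.573 to 1.09 in Pak4_KO, and the Pank1 share is 65.6 to 68.3% and 67.2 to 70.9%.

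Further genes of the CoA pathway were mostly on the positive side without a call. All 8 of that list were tested, 7 with a positive and 1 with a negative log2 fold change, a median of 0.17, and 0 called in either direction. Slc25a42, the mitochondrial CoA carrier, had the smallest p of the 8 and was at 34.3, 32.6 and 24.4 CPM in WT and 63.7, 45.7 and 49.1 CPM in Pak4_KO. Its groups did not overlap, and the log2 fold change was 0.80 (SE 0.18, edgeR adjusted p = 0.179). Aasdhppt, which attaches phosphopantetheine to carrier proteins, came next, at 0.19 (SE 0.14, edgeR adjusted p = 0.821). Nudt8, the mitochondrial CoA hydrolase, had a log2 fold change of 0.01 (SE 0.18), and Slc25a17, the peroxisomal cofactor carrier, -0.09 (SE 0.17); both were named after their values were seen.

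**Figure D4:**
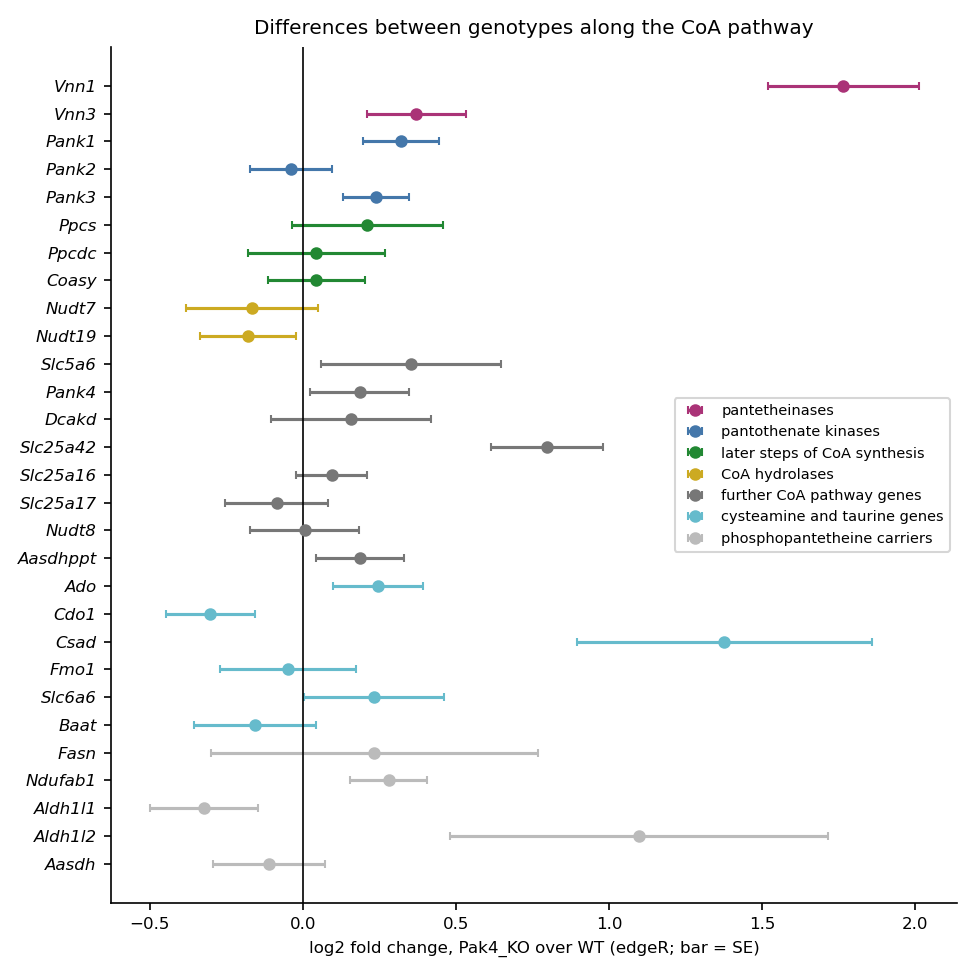
Log2 fold change (Pak4_KO over WT, edgeR) with its SE for the members and for the tested genes of 3 further lists, coloured by role. Vnn1 stands at 1.77, and the other 9 members lie between -0.18 and 0.37.

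Other PPARα targets were set beside Vnn1. Of 12 tested targets on a list chosen with earlier results known, 11 had a positive log2 fold change, and the median of the list was 1.02. Wholly above WT lay 9 of them, against 7.35% of all tested genes. Angptl4 was the 1 with a negative log2 fold change (-0.12, SE 0.14). The acyl-CoA thioesterase Acot1 was the 1 gene called on that list, against 0.265% of all tested genes called higher. Acot1 was at 15.6, 10.2 and 22.0 CPM in WT and 56.4, 87.5 and 129 CPM in Pak4_KO (log2 fold change 2.51, SE 0.36, edgeR adjusted p = 0.0262). Like Vnn1, Acot1 was highest in Pak4_KO replicate 3, as were all others of the list but Pdk4 and Angptl4. Pdk4 and Angptl4 stood there at 418 and 219 CPM, the lowest of their Pak4_KO libraries. The part of PPARα in the Vnn1 values was not tested.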

How the data were processed

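The authors deposited 1 table with read counts per gene, not normalized, plus FPKM (not used here) and TPM, per the file headers. Tools listed in the submitters' processing notes are StringTie 2.1.3b, Bowtie2 2.3.4.1, HISAT2 2.1.0, bcl2fastq 2.20.0 and FastQC 0.11.7, with mm10 as build. The annotation, the strand setting and the treatment of multiply matching reads were not stated there. In each library more genes held 2 reads than 1, so whether mates of a pair were counted separately is uncertain. Counts were fitted with edgeR 4.0.16 (R 4.3.3): filterByExpr, TMM factors, glmQLFit and glmQLFTest over all 6 libraries, Benjamini-Hochberg over all tested genes, calls at adjusted p under 0.05. SE is the absolute log2 fold change over the square root of F. Deposited TPM, without TMM factors, gave levels between genes and the sums, shares and ratios. DESeq2 1.42.0 and limma 3.58.1 served as alternatives. The edgeR, DESeq2 and limma-voom fits were also run on counts simulated with the dispersions fitted here. Such counts follow the model by design, so they cannot show that it holds for these libraries. Coordinates are RefSeq GRCm38.p6 (45679 genes matched), the build of mm10. Shared sequence came from blastn 2.17.0 and Biopython 1.88 on GENCODE M21, taking the longest coding transcript of a gene.

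The members and lists were chosen with earlier results of these data known. By rule the text names all members, Pak4 and each called gene of a pathway or target list, or else the 2 with the smallest p. The rule also covers named tested genes within 0.5 Mb of Vnn1 and the 5 nearest profiles. Named outside that rule, with their values known, were Pdk4, Angptl4, Nudt8, Slc25a17 and single markers of cell types. Genes that overlap a member were named as well.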

Additional observations from a re-analysis of the deposited data

How the results depend on the processing

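Vnn1 was called by all 10 alternatives that kept the 6 libraries, with adjusted p from 3.17e-09 (DESeq2) to 0.0486 (replicate block). With a library left out in turn, the members called higher were 0 to 1 and lower 0 in every fit; the genes called in all were 37 to 81, against 76. Requiring at least 10 reads in every library gave 44 genes called and the DESeq2 Wald test 334. The labels do not say whether the replicate numbers pair the samples, and 3 libraries per group cannot settle it. Correlations of deviations were 0.0669, -0.201 and 0.147 for numbers 1, 2 and 3, with the own number highest for 2 of 3. The fit with a replicate block called 73 genes and 1 member, Vnn1 (log2 fold change 1.76).

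The sign turned for 4 members, none of them called. Pank2 was at 0.018 with library size scaling, 0.026 on log2(TPM + 1) and 0.028 on log2(TPM + 0.1), and Ppcdc at -0.014 and -0.016 on those TPM scales. With 1 library left out, log2 fold changes ran from -0.096 to 0.029 for Pank2, -0.081 to 0.209 for Ppcdc, -0.099 to 0.148 for Coasy and -0.368 to 0.039 for Nudt7. The cause was not tested. Vnn1, Vnn3, Pank1, Pank3, Ppcs and Nudt19 kept their sign in all 16 alternatives. The Pank1 share was 63.3% in WT and 65.6% in Pak4_KO from counts per GENCODE exon length, chosen after seeing the data because no RefSeq exons were used here.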

Other observations

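Cysteamine, the other product of the vanins, can be oxidised to hypotaurine and joins the taurine pathway, whose genes had log2 fold changes of both signs. Of 7 genes on that list 6 were tested, 3 with a positive and 3 with a negative log2 fold change, and 0 were called. Csad, the cysteine sulfinate decarboxylase of taurine synthesis, spread widely, at 137, 35.8 and 88.9 CPM in WT and 132, 209 and 339 CPM in Pak4_KO (log2 fold change 1.38, SE 0.48, edgeR adjusted p = 0.468). Its groups overlapped at Pak4_KO replicate 1. Cdo1, the cysteine dioxygenase one step before, lay lower in every Pak4_KO library, at 995, 934 and 1162 CPM in WT and 825, 899 and 783 CPM in Pak4_KO (log2 fold change -0.30, SE 0.15, edgeR adjusted p = 0.655).

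Proteins that carry phosphopantetheine from CoA as a bound arm had 3 positive and 2 negative log2 fold changes among 5 tested genes, with 0 called. Ndufab1, the mitochondrial acyl carrier protein, was at 19.6, 22.3 and 19.8 CPM in WT and 25.9, 24.7 and 24.5 CPM in Pak4_KO (log2 fold change 0.28, SE 0.12, edgeR adjusted p = 0.617). Aldh1l1, a folate enzyme of liver cytosol, was at 1520, 1866 and 1519 CPM in WT and at 1512, 1341 and 1068 CPM in Pak4_KO (log2 fold change -0.32, SE 0.18, edgeR adjusted p = 0.710), the highest Pak4_KO library just below the lowest WT library.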
